A study of Mus musculus with 6 samples.

Results

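Of the 55840 genes in the deposited table, 10 were examined here as regulators of DNA methylation and of Polycomb silencing, chosen by their gene names: Dnmt1, Dnmt3a, Dnmt3b, Uhrf1, Mbd2, Tet1, Tet2, Tet3, Ezh2 and Ezh1. All 10 members were found, all are protein coding, and all 10 were among the 14919 genes with enough counts to be tested. The RNA was from Tregs of mice, the suppressive T lymphocytes whose identity rests on the factor Foxp3, taken per the series title from spleen and lymph nodes. Of the 6 libraries, 3 were from wild-type mice (WT) and 3 carried the genotype labelled Exon2KO, the Foxp3∆2 allele of the title. The age and sex of the mice, the markers used to isolate the cells and the way the allele was made are not given in the sources used here. Library names in the table join the genotype with 2, 6 or 20, so each of these numbers occurs once for WT and once for Exon2KO.

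In mammalian cells, methyl groups sit mainly on the cytosine of CpG pairs. Dnmt3a and Dnmt3b place new marks, and Dnmt1 copies them after DNA replication, guided by Uhrf1, which recognises the hemimethylated daughter duplex. Mbd2 reads methylated CpG and recruits a repressor complex, while the TET dioxygenases (Tet1, Tet2 and Tet3) oxidise the methyl group and so start its removal. Ezh2 and Ezh1 are the alternative catalytic subunits of Polycomb repressive complex PRC2, which methylates lysine 27 of histone H3. In Tregs, enhancers of Foxp3 and of other signature genes are held free of methylation, and TET enzymes and Ezh2 are known to be needed for stable Treg identity.

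RefSeq (GRCm38.p6) promoter windows of 300 bases, from 250 bases before a transcription start to 50 bases after it, were available for 9 of the 10 members, 14 windows in all. The motifs searched, on both strands, were the E2F motif as TTTCGCGC, TTTGGCGC or TTTCCCGC, the cell cycle homology region as TTTGAA or TTCGAA, and CCAAT. No motif contains another. The E2F letters stood in 3 of the 14 windows, 1 each of Dnmt1, Uhrf1 and Ezh2, in 605 of all 32817 promoter windows of the same length (1.84%), and in 5 of the 22 windows found for a list of 26 proliferation genes. The cell cycle homology letters stood in 2 of the 14 windows (19.2% of all windows) and CCAAT in 6 (37.4%). The windows of the members had a median of 26.5 CpG pairs and 69.0% GC, against 7 CpG pairs and 52.7% GC over all windows. Each form of the E2F motif contains CpG, and no share among windows of like CpG content was computed. Printed here are the E2F-bearing windows and the Tet3 window, which holds no such letters. They run 5′ to 3′ and up to 30 bases after the start. Capitals mark the E2F letters. The Uhrf1 stretch is chr17:56304063-56304342 on the plus strand, and the Ezh2 stretch chr6:47595001-47595280, the Dnmt1 stretch chr9:20952594-20952873 and the Tet3 stretch chr6:83441649-83441928, each on the minus strand.
Uhrf1: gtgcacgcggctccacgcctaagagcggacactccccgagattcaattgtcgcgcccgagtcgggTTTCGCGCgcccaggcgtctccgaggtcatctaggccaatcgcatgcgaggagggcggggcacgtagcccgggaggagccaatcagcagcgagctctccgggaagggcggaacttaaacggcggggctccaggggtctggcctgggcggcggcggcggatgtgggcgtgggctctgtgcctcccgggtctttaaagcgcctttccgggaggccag
Ezh2: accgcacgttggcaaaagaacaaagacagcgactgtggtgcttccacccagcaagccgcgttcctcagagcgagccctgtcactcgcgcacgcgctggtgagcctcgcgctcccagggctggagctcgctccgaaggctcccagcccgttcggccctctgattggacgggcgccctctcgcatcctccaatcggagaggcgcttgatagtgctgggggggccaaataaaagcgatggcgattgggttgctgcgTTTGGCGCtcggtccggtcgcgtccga
Dnmt1: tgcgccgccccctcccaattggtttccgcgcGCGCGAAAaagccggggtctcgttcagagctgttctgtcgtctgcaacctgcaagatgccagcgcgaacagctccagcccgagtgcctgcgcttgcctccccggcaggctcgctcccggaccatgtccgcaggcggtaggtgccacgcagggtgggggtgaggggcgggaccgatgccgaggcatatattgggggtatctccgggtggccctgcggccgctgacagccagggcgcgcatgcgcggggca
Tet3: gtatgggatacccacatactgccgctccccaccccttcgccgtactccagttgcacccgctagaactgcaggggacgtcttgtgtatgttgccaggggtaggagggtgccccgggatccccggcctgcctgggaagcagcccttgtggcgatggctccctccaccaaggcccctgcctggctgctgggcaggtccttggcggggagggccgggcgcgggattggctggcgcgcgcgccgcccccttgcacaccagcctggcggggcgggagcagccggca
Distances are from the start site of the printed window. The Uhrf1 match began 185 bases before it, and the Ezh2 match 3 bases after it. The capitalised Dnmt1 match, which reads as the motif on the other strand, began 219 bases before it. A further Dnmt1 match began 33 bases after the start and lies beyond the stretch shown. Dnmt1 (chr9:20952930-20953229 and chr9:20959839-20960138) and Uhrf1 (chr17:56303087-56303386) also have windows further upstream, without E2F letters. Their matches thus lie downstream of other start sites. These are matches of letters only; no binding was measured.

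Library totals ran from 17998216 to 21003496 counts. The edited gene, Foxp3, had 783, 602 and 751 CPM (counts per 1000000, on library sizes scaled by the trimmed mean of M values, TMM) in WT 2, 6 and 20, and 826, 684 and 925 CPM in Exon2KO 2, 6 and 20. The counts are per gene and do not show exon 2, so they do not check the genotype labels. All 8 Treg and T cell identity genes listed were tested, and their summed level was 3688 to 4136 CPM in WT and 3385 to 3736 CPM in Exon2KO. Of these, Il2ra, Ctla4 and Ikzf2 were called lower in Exon2KO (log2 fold changes of -0.52, -0.85 and -0.66), and Foxp3, Tnfrsf18, Cd4, Cd3e and Trac were not called. With the library number as a block, as described further on, the values of Il2ra, Ctla4 and Ikzf2 were -0.52, -0.84 and -0.66 (edgeR adjusted p = 7.59e-05, 9.5e-07 and 6.35e-06), and Tnfrsf18 was called lower too (-0.73, edgeR adjusted p = 0.000209, against 0.0585 without the block). The part of these identity genes in the results on the members was not tested. The 6 B cell markers summed to 32.5 to 32.9 CPM in WT and 25.8 to 28.3 CPM in Exon2KO, and the 8 myeloid markers to 22.7 to 71.7 and 18.7 to 54.3 CPM. The 5 CD8 and NK markers summed to 19.2 to 20.8 and 21.3 to 33.0 CPM, the 4 erythroid markers to 4.46 to 15.5 and 3.21 to 10.9 CPM, and the 6 stromal and endothelial markers to 165 to 191 and 189 to 225 CPM, nearly all of it Pecam1 (177 CPM in WT). Of these markers of other cells, Cd79b (-0.51, edgeR adjusted p = 0.00501) and Lyz2 (-0.40, 0.0413) were called lower and Pecam1 higher (0.23, 0.0164) with the block. Among them 1 gene, Dcn, was at 0 counts in every library.

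Levels of different genes were compared per length, as CPM (counts scaled to a common library size, defined above) per kilobase of the summed exon length in the deposited table. Over the 6 libraries Mbd2 was highest at a mean of 55.7 CPM per kilobase (52.6 to 58.5), followed by Dnmt1 at 29.7 (25.3 to 35.4). The next 5 genes lay close together, with means of 14.9 for Uhrf1, 14.6 for Tet3, 13.1 for Ezh1, 11.8 for Dnmt3a and 11.1 for Ezh2 CPM per kilobase. Each neighbouring pair among these 5 overlapped in range. Tet2 followed at 4.91, Dnmt3b at 2.91 and Tet1 at 1.05 CPM per kilobase. The ranges of Mbd2 and Dnmt1, of Dnmt1 and Uhrf1, of Ezh2 and Tet2, of Tet2 and Dnmt3b and of Dnmt3b and Tet1 did not overlap. Thus, among the enzymes that place new methylation, the Dnmt3a transcript level was above that of Dnmt3b in every library, and among the TET genes the order was Tet3, Tet2, Tet1 in every library. Lengths are the summed exons of all annotated transcripts (3 to 13 coding transcripts for the members other than Mbd2, which has 2), so this scale understates a gene whose cells use a short transcript.

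When libraries of equal number were set against each other, Tet3 and Tet1 were higher in Exon2KO Tregs (log2 fold changes of 0.28 and 0.47), and Ezh2 and Uhrf1 were lower (-0.25 and -0.24). Dnmt1, Dnmt3a, Dnmt3b, Tet2, Mbd2 and Ezh1 were not called. When the number was disregarded, none of the 10 was called. To ask whether the Exon2KO allele goes with other levels of these regulators, it was compared with WT by edgeR's quasi-likelihood test on the counts of all genes, with p-values adjusted by the Benjamini-Hochberg method. None of the 10 members passed an adjusted p of 0.05, where 2.33% of all tested genes did (348 of 14919). At an unadjusted p under 0.05 the count was 1 of 10 (Tet3), where 12.1% of all tested genes passed (1810 of 14919). DESeq2 and limma-voom likewise called 0 members, against 3.78% and 1.94% of all genes with an adjusted p. The groups did not overlap for 2 members, Tet3 and Tet1, against 17.7% of all tested genes. The library numbers carried a shared signal, so the fit was repeated with the number as a block. In that fit 4 of 10 members were called, against 9.72% of all tested genes (1450 of 14919): Tet3 and Tet1 higher, Ezh2 and Uhrf1 lower in Exon2KO. In the blocked fit with limma-voom, which called 9.26% of all genes, 2 members were called, Tet3 (adjusted p = 0.0109) and Ezh2 (0.0343), while Tet1 and Uhrf1 had adjusted p-values of 0.0682 and 0.0512. With number 6 left out of the blocked edgeR fit 3 members were called (Tet3, Uhrf1 and Ezh2), against 9.47% of all genes. With number 2 or number 20 left out 0 members were called, against 1.83% and 6.03% of all genes. In bulk RNA, fewer cells of a type and less RNA per cell cannot be told apart.

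**Figure D1:**
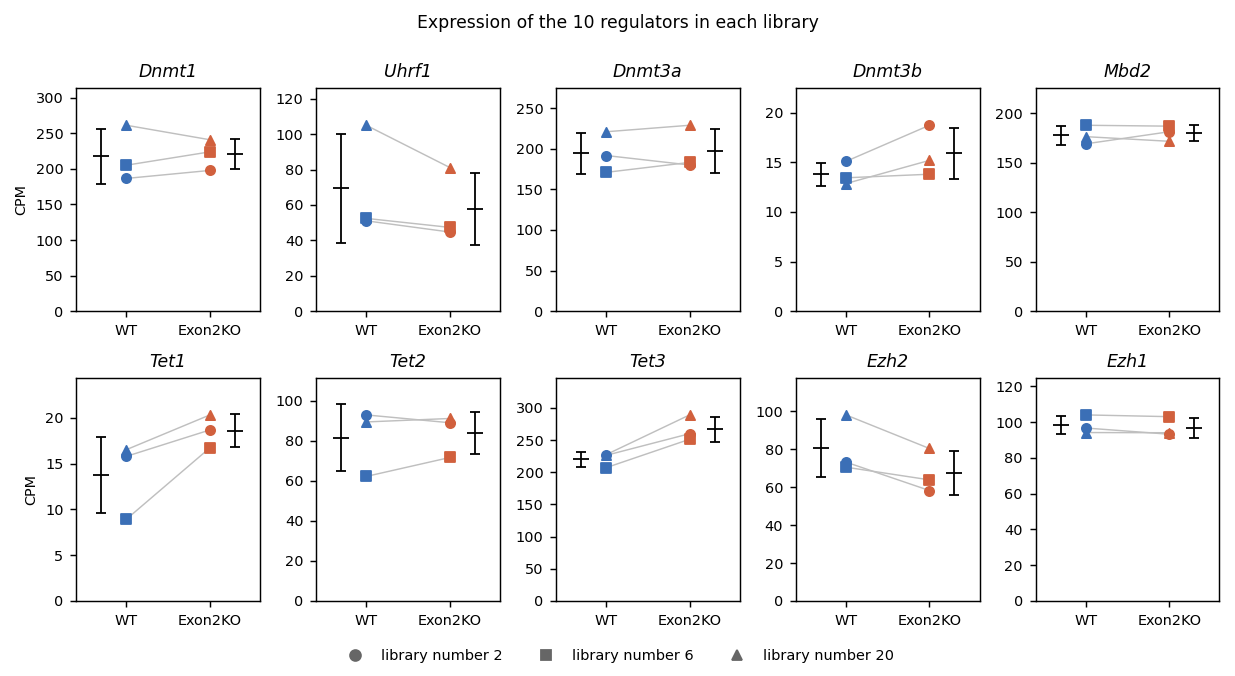
CPM of each regulator (vertical axis, from 0) in the 3 WT (blue) and 3 Exon2KO (orange) libraries; symbols give the library number, grey lines join equal numbers, and black bars are mean ± SD of 3 libraries. Tet3 and Tet1 are the members whose groups do not overlap. The triangles, number 20, lie above the other libraries of their genotype for Uhrf1, Ezh2, Dnmt1, Dnmt3a, Tet1 and Tet3. For Tet3 in WT the margin over WT 2 was narrow (227 against 226 CPM).

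Of the TET genes, which start the removal of methylation, Tet3 and Tet1 were called higher with the block and Tet2 was not called. Tet3 (ENSMUSG00000034832, chromosome 6, 83362373 to 83459084, minus strand, GRCm38) had 226, 207 and 227 CPM in WT 2, 6 and 20 and 260, 251 and 289 CPM in Exon2KO 2, 6 and 20. Every Exon2KO library was above every WT library. The means were 220 ± 11.4 CPM in WT and 267 ± 19.8 CPM in Exon2KO (SD, n = 3 each), a 1.21-fold difference, or 0.28 in log2 units (SE 0.08; adjusted p = 0.156 by edgeR). With the block Tet3 rose by the same 0.28 (SE 0.06, edgeR adjusted p = 0.00723), and the differences within numbers 2, 6 and 20 were 0.20, 0.28 and 0.35 on the log2 scale. With number 20 left out of both genotypes, the blocked value was 0.24 (edgeR adjusted p = 0.0684), and with number 2 left out it was 0.31 (edgeR adjusted p = 0.118). The authors' deposited table lists Tet3 at 0.28 on the log2 scale, with 0.0835 as its adjusted p. The antisense gene B230319C09Rik, which overlaps Tet3, held 76 counts over all libraries beside 27528 for Tet3. On the same strand, 5430434F05Rik and Mir6374 also overlap it, with 79 and 4 counts.

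Tet1 (ENSMUSG00000047146, chromosome 10, 62804570 to 62908996, minus strand), the lowest member per kilobase, had 294, 162 and 352 reads counted for WT 2, 6 and 20 and 336, 326 and 361 for Exon2KO. By counts summed over the 6 libraries it stood above Dnmt3b (1831 against 1675). On the CPM scale it had 15.8, 8.92 and 16.5 CPM in WT and 18.7, 16.7 and 20.3 CPM in Exon2KO, so the groups were apart by a narrow margin and WT 6 lay well under the other libraries. Its log2 fold change was 0.43 (SE 0.22, edgeR adjusted p = 0.514) without the block and 0.47 (SE 0.13, edgeR adjusted p = 0.0413) with it. The difference within number 6 was 0.91, against 0.24 and 0.30 within numbers 2 and 20. Without WT 6 the value fell to 0.20 (edgeR adjusted p = 0.715), and with number 6 left out of both genotypes the blocked value was 0.26 (edgeR adjusted p = 0.288). Its call in the blocked fit was lost when any of the 3 numbers was left out.

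Tet2 (ENSMUSG00000040943, chromosome 3, 133463679 to 133545139, minus strand) gave 93.0, 62.2 and 89.5 CPM in WT and 89.1, 71.7 and 91.2 CPM in Exon2KO. Both libraries numbered 6 were low and the genotypes overlapped. The log2 fold change was 0.04 (95% interval -0.33 to 0.42), and with the block 0.05 (-0.09 to 0.20, edgeR adjusted p = 0.724).

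Of the enzymes that write methylation, none of Dnmt1, Dnmt3a and Dnmt3b was called in either fit. Dnmt1, the maintenance methyltransferase (ENSMUSG00000004099, chromosome 9, 20907209 to 20959888, minus strand), had 187, 205 and 261 CPM in WT 2, 6 and 20 and 198, 224 and 241 CPM in Exon2KO. Its mean was 218 ± 38.9 CPM in WT and 221 ± 21.7 CPM in Exon2KO (SD, n = 3 each). The log2 fold change with the block was 0.03, with a 95% interval of -0.11 to 0.17. The sign was not the same within numbers, at 0.08, 0.13 and -0.12.

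Dnmt3a (ENSMUSG00000020661, chromosome 12, 3806007 to 3914443, plus strand), the main de novo enzyme here by level, had 192, 171 and 221 CPM in WT and 180, 183 and 229 CPM in Exon2KO. Number 20 was the highest in each genotype, and the groups overlapped. Its log2 fold change was 0.02 in both fits, with a 95% interval of -0.11 to 0.15 under the block. Dnmt3b (ENSMUSG00000027478, chromosome 2, 153649450 to 153687730, plus strand) had 15.1, 13.4 and 12.9 CPM in WT and 18.7, 13.8 and 15.2 CPM in Exon2KO. Each Exon2KO library was above the WT library of its number, but the ranges of the genotypes overlapped. Its difference was 0.21 in log2 units (SE 0.15; adjusted p = 0.724 by edgeR) and with the block 0.20 (95% interval -0.05 to 0.45, edgeR adjusted p = 0.371). Without Exon2KO 2 and without the block its value was 0.066.

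Uhrf1 (ENSMUSG00000001228, chromosome 17, 56303321 to 56323486, plus strand), which brings Dnmt1 to newly replicated DNA, had 51.1, 52.4 and 105 CPM in WT 2, 6 and 20 and 44.7, 47.3 and 81.1 CPM in Exon2KO. Number 20 stood apart in both genotypes, by 1.02 in WT and 0.82 in Exon2KO on the log2 scale over the mean of the other libraries. The genotypes overlapped, and the log2 fold change was -0.27 (SE 0.40, edgeR adjusted p = 0.896). Without WT 20 it turned to 0.16. Within numbers 2, 6 and 20 it was -0.19, -0.15 and -0.37, and in the blocked fit Uhrf1 fell by 0.24 (SE 0.07, edgeR adjusted p = 0.0425). With number 20 left out of the blocked fit the value was -0.17 (edgeR adjusted p = 0.34), and with number 2 left out it was -0.26 (edgeR adjusted p = 0.245).

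Mbd2 (ENSMUSG00000024513, chromosome 18, 70568189 to 70626131, plus strand), the reader of methylated CpG, showed the highest level per length of the 10 members and little spread. It had 169, 188 and 176 CPM in WT and 181, 187 and 172 CPM in Exon2KO, with overlapping groups. The log2 fold change was 0.02 in both fits, with a 95% interval of -0.11 to 0.14 under the block.

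Of the PRC2 enzymes, Ezh2 (ENSMUSG00000029687, chromosome 6, 47530139 to 47595341, minus strand) had 73.2, 70.6 and 98.1 CPM in WT 2, 6 and 20 and 58.2, 63.9 and 80.4 CPM in Exon2KO. The groups overlapped because Exon2KO 20 was above WT 2 and WT 6, but each Exon2KO library was under the WT library of its number, with differences of -0.33, -0.14 and -0.29 on the log2 scale. The means were 80.6 ± 15.2 and 67.5 ± 11.5 CPM (SD, n = 3 each), and the difference was -0.26 in log2 units (SE 0.16; adjusted p = 0.637 by edgeR). In the blocked fit Ezh2 fell by 0.25 (SE 0.07, edgeR adjusted p = 0.023). Leaving number 20 out of that fit gave -0.24 (edgeR adjusted p = 0.125) and leaving out number 2 gave -0.22 (edgeR adjusted p = 0.284). Without the block the value was -0.09 without WT 20, -0.17 without Exon2KO 2 and -0.41 without Exon2KO 20.

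Ezh1 (ENSMUSG00000006920, chromosome 11, 101191115 to 101226463, minus strand), the paralog found also in resting cells, had 96.7, 104 and 94.1 CPM in WT and 93.2, 103 and 94.0 CPM in Exon2KO. The log2 fold change was -0.02 in both fits, with a 95% interval of -0.15 to 0.10 under the block. The ratio of Ezh2 to Ezh1 counts, not corrected for length, was 0.758, 0.678 and 1.04 in WT 2, 6 and 20 and 0.625, 0.620 and 0.855 in Exon2KO. On the log2 scale the ratio was -0.30 ± 0.32 in WT and -0.53 ± 0.26 in Exon2KO (SD, n = 3 each), a difference of -0.23 (two-sided exact permutation test, p = 0.5). Within numbers 2, 6 and 20 the difference was -0.28, -0.13 and -0.29, the same sign in each pair (exact sign-flip permutation test, p = 0.25). Neither test can reach 0.05 here, since the smallest p is 0.1 for 3 against 3 and 0.25 for 3 pairs. Without WT 20 the difference was -0.051. Per length, Ezh2 stood above Ezh1 in WT 20 only, at a ratio of 1.16, and between 0.691 and 0.953 in the other 5 libraries.

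**Figure D2:**
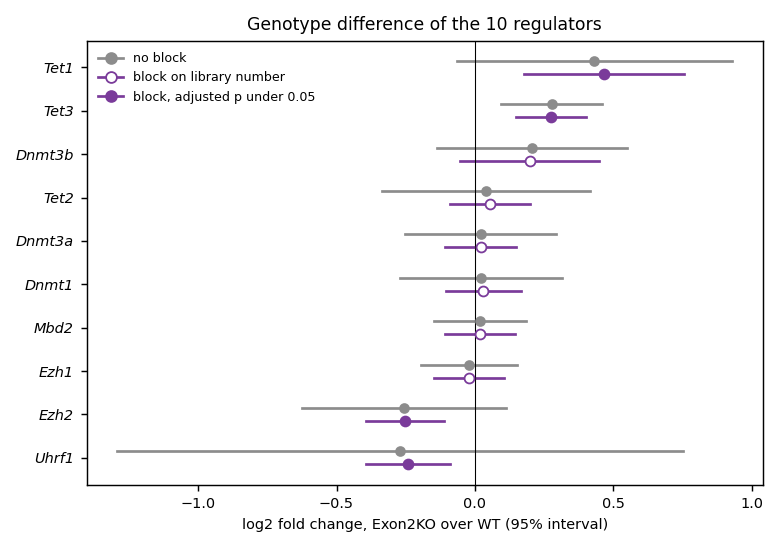
Log2 fold change of Exon2KO over WT for the 10 regulators, without the block (grey) and with the library number as a block (purple), with 95% intervals as horizontal lines; filled purple points have an adjusted p under 0.05. Tet1 and Tet3 lie to the right of 0 and Ezh2 and Uhrf1 to the left in both fits, and the other 6 blocked intervals include 0.

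The library number itself was then tested in the blocked fit, a test chosen after seeing the data. Of the 10 members, 5 differed between numbers at an adjusted p under 0.05, against 10.4% of all tested genes (1559 of 14919). They were Uhrf1 (edgeR adjusted p = 2.39e-06), Ezh2 (0.00254), Tet2 (0.00316), Dnmt1 (0.0119) and Dnmt3a (0.0128). Uhrf1, Ezh2, Dnmt1 and Dnmt3a had their highest level of each genotype in number 20, while Tet2 had its lowest in number 6. Of the 26 genes of a proliferation list, 22 differed between numbers. Mki67, a marker of cycling cells, had 140, 148 and 332 CPM in WT 2, 6 and 20 and 115, 127 and 208 CPM in Exon2KO, and Mcm5, a subunit of the replicative helicase, 97.8, 96.0 and 160 CPM in WT and 83.0, 88.2 and 139 CPM in Exon2KO. The myeloid marker sum was also highest in number 20, at 71.7 CPM in WT and 54.3 CPM in Exon2KO against 18.7 to 27.3 CPM elsewhere, and the share of mitochondrial counts lowest, at 1.40% and 1.24% against 1.68% to 1.85%. The erythroid marker sum was lowest in number 20 too, at 4.46 CPM in WT and 3.21 CPM in Exon2KO against 8.11 to 15.5 CPM elsewhere. What the number stands for is not given in the sources used here.

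In the comparison of the genotypes, all 26 proliferation genes had a negative log2 fold change, with a median of -0.37 and 0 called without the block, also by DESeq2 and limma-voom and at an unadjusted p under 0.05. Mki67 was -0.46 without the block (edgeR adjusted p = 0.828) and fell by 0.40 with it (0.0109), or by 0.25 with number 20 left out of the blocked fit (0.0474), while without WT 20 and without the block it was 0.060. Mcm5 was at -0.19 in both fits (edgeR adjusted p = 0.902 without the block and 0.0625 with it). With the block the list's median was -0.33 and 9 of 26 were called lower, where 9.72% of all tested genes were called in either direction. With number 2, 6 or 20 left out of the blocked fit, 0, 13 and 2 were called, against 1.83%, 9.47% and 6.03% of all genes, so the 2 without number 20 are a share near that of all genes. Without WT 20 the median of the fit without the block was -0.0094. Across the 6 libraries, log2 CPM of Uhrf1 and of Ezh2 followed the mean of this list with Pearson's r of 0.977 and 0.971, and Dnmt1 with 0.829. Dnmt3a, whose windows hold no E2F letters, was close to Dnmt1 at 0.763. Tet2 gave 0.22, Tet1 0.04, Tet3 -0.10, Ezh1 -0.29, Mbd2 -0.32 and Dnmt3b -0.63 (6 libraries that share 3 numbers; a description without a test). Relative to that mean, Ezh2 was at 1.38, 1.17 and 0.92 log2 units in WT 2, 6 and 20 and at 1.29, 1.26 and 1.10 in Exon2KO. Uhrf1 was at 0.86, 0.75 and 1.02 in WT and at 0.91, 0.83 and 1.11 in Exon2KO. On this scale the mean of neither gene was lower in Exon2KO: 1.22 ± 0.11 against 1.16 ± 0.23 for Ezh2 and 0.95 ± 0.14 against 0.88 ± 0.14 for Uhrf1 (SD, n = 3 each). This was not particular to these genes, since every other member also had a higher mean in Exon2KO on this scale. The list mean was itself lower in Exon2KO, at 4.82, 4.97 and 5.70 in WT 2, 6 and 20 and 4.58, 4.73 and 5.24 in Exon2KO. Taking it away therefore raises the Exon2KO value of any gene relative to WT. The signs on this scale follow in part from that subtraction. For Ezh1 it was 1.75 ± 0.37 against 1.46 ± 0.52, and for Mbd2 2.64 ± 0.40 against 2.31 ± 0.47 (SD, n = 3 each). The part of proliferation in the Ezh2 and Uhrf1 differences was not tested.

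**Figure D3:**
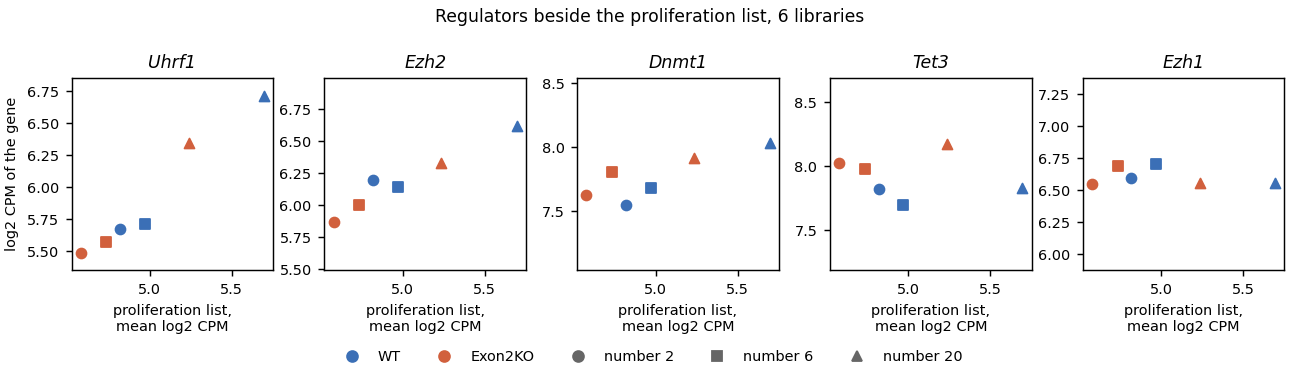
Log2 CPM of 5 regulators (vertical axes, all of the same height in log2 units) against the mean log2 CPM of 26 proliferation genes in the 6 libraries; colour gives the genotype and symbol the library number. The points of Uhrf1 and Ezh2 climb with the list (r of 0.977 and 0.971), and r was -0.10 for Tet3 and -0.29 for Ezh1.

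By the rule for named genes, the 3 protein-coding genes most like each member over the 6 libraries were taken from 8421 genes with a mean of at least 10 CPM, by Pearson's r of log2 CPM. For Uhrf1 they were Atad5, Dtl and Mcm5 (r of 0.997, 0.996 and 0.995). For Ezh2 they were Kif20a, Mcm7 and Espl1 (0.996, 0.995 and 0.993). For Dnmt1 they were Ddx10, Hs2st1 and Usp37 (0.992, 0.989 and 0.988). For Tet3 they were Map4k4, Cers6 and Parp10 (0.994, 0.993 and 0.992), and for Tet1 Ano6, Qpctl and Magi3 (0.994, 0.990 and 0.989). Those of the other members were Pspc1, Plk2 and Agrn for Dnmt3a, Fam76b, Tmem185b and Mettl2 for Dnmt3b, Trim23, Hipk2 and Baz2b for Tet2, Esco1, Stard3nl and Nck1 for Mbd2, and Fbxo22, Sdhaf2 and Slc29a1 for Ezh1, with r from 0.979 to 0.999. Among the members, the pairs most alike were Uhrf1 with Ezh2 (0.945), Dnmt3a with Uhrf1 (0.876), Dnmt1 with Uhrf1 (0.856) and Tet1 with Tet3 (0.839). These values come from 6 libraries that share 3 numbers and are descriptions without a test.

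Partners of these enzymes were taken from 6 lists of 89 genes, of which 82 were tested. Without the block, none was called by edgeR on the filtered genes or by limma-voom. The unadjusted p was under 0.05 for 11 (12.1% of all tested genes had one), and 1, Pcgf2, was called by DESeq2 and by edgeR without a count filter (2.3% of all genes in that fit). The median log2 fold change was 0.03, beside 0.01 over all tested genes. With the block 10 of 82 were called (12.2%, beside 9.72% of all tested genes), 1 higher and 9 lower. With number 2, 6 or 20 left out of that fit, 0, 15 and 5 were called, against 1.83%, 9.47% and 6.03% of all genes. The 5 without number 20 were Zbtb38, Gadd45b, Pcgf2, Cbx6 and Kdm2b.

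Among 10 tested genes for the maintenance and targeting of methylation, 1 was called with the block (10%, beside 9.72% of all tested genes). It was Hells, a chromatin remodeller needed for methylation of repeats. It had 24.7, 25.7 and 48.9 CPM in WT 2, 6 and 20 and 20.6, 20.8 and 28.0 CPM in Exon2KO; number 20 was high in both, as for Uhrf1. It fell by 0.47 with the block (SE 0.11, edgeR adjusted p = 0.0143). Without the block its value was -0.52 (edgeR adjusted p = 0.599), and without WT 20 as well -0.13 (0.896). Usp7, a deubiquitinase that stabilises Dnmt1 and Uhrf1, had 288 to 294 CPM in WT and 320 to 326 CPM in Exon2KO, without overlap, a log2 fold change of 0.15 with the block (edgeR adjusted p = 0.131). Cdca7l gave -0.20 with the block (edgeR adjusted p = 0.185), and without the block -0.20 with all libraries, -0.13 without WT 20 and -0.29 without Exon2KO 20.

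Of the 18 readers of methylated CpG and NuRD subunits, 1 was called with the block (5.56%, beside 9.72% of all tested genes). It was Zbtb38, a zinc finger protein that binds methylated DNA. It had 104, 99.5 and 109 CPM in WT and 86.4, 82.3 and 88.1 CPM in Exon2KO, without overlap, and fell by 0.28 with the block (SE 0.06, edgeR adjusted p = 0.00605; without the block, 0.0958). Zbtb33, the Kaiso protein, had 35.0 to 39.5 CPM in WT and 41.1 to 50.3 CPM in Exon2KO, a log2 fold change of 0.27 with the block (edgeR adjusted p = 0.082). Exon2KO 6 was its highest library, and the value was 0.18 without it and without the block, and 0.13 in the blocked fit with number 6 left out. Mbd1 gave -0.17 with the block (edgeR adjusted p = 0.093), and without the block -0.18 with all libraries, -0.096 without WT 2, -0.10 without Exon2KO 20 and -0.31 without WT 20.

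Of the 14 tested genes linked to demethylation, 4 were called with the block (28.6%, beside 9.72% of all tested genes), 1 higher and 3 lower. Idh2, the mitochondrial isocitrate dehydrogenase that makes the 2-oxoglutarate used by TET enzymes, had 23.7 to 26.4 CPM in WT and 30.4 to 31.8 CPM in Exon2KO and rose by 0.32 with the block (SE 0.09, edgeR adjusted p = 0.0359). This call was lost when any of the 3 numbers was left out of the blocked fit (values of 0.27 to 0.38, edgeR adjusted p = 0.141 to 0.179). Apobec1, a cytidine deaminase best known for RNA editing, had 16.0 to 18.1 CPM in WT and 11.8 to 12.9 CPM in Exon2KO and fell by 0.45 with the block (SE 0.12, edgeR adjusted p = 0.0254). The other genes called, Gadd45b and Apobec3, fall outside the rule for named genes and are named after their values were seen. Gadd45b, a stress-induced adaptor, had 95.5, 89.1 and 239 CPM in WT 2, 6 and 20 and 74.2, 68.5 and 211 CPM in Exon2KO, so number 20 was high in both genotypes. It fell by 0.30 with the block (edgeR adjusted p = 0.00524), while without WT 20 and without the block its value was 0.35. Apobec3, a cytidine deaminase that restricts retroviruses, had 321, 335 and 261 CPM in WT and 270, 289 and 196 CPM in Exon2KO and fell by 0.29 with the block (edgeR adjusted p = 0.00678). Without Exon2KO 20 and without the block its value was -0.13. Gadd45a had 14.6 to 15.7 CPM in WT and 16.9 to 20.2 CPM in Exon2KO, a log2 fold change of 0.29 with the block (edgeR adjusted p = 0.129).

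None of the 12 tested PRC2 partners was called by edgeR in either fit, nor by DESeq2 or limma-voom without the block, and 0 had an unadjusted p under 0.05 without it; their median log2 fold change was 0.0046. The smallest p-values without the block belonged to Lcor (log2 fold change of 0.34 with the block, edgeR adjusted p = 0.102), Epop (-0.25, 0.316) and Phf19 (-0.31, 0.166). Single libraries moved some of these values: without the block Lcor was 0.32 with all libraries and 0.14 without WT 6, and Phf19 was -0.30, then -0.18 without WT 20 and -0.50 without Exon2KO 20. With number 6 left out of the blocked fit Lcor was 0.15 and Epop -0.16, and with number 2 left out Lcor was 0.49. The core subunits Eed and Suz12 gave log2 fold changes of -0.03 and 0.04 with the block.

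Of the 25 tested genes of PRC1, which binds the mark of PRC2 and ubiquitinates histone H2A, 3 were called with the block, all lower. This 12% is near the 9.72% of all tested genes called in that fit, most of them lower too (864 lower and 586 higher). Pcgf2 (Mel18), a ring finger subunit, had 12.6, 11.3 and 10.5 CPM in WT 2, 6 and 20 and 3.83, 7.90 and 4.84 CPM in Exon2KO, without overlap. Its log2 fold change was -1.05 without the block (SE 0.26, edgeR adjusted p = 0.0787) and -1.09 with it (SE 0.20, edgeR adjusted p = 0.00409), in both fits the largest change among the tested genes of these 6 lists. DESeq2 gave it an adjusted p of 0.00457, and edgeR without a count filter 0.00219. Without Exon2KO 6, its highest Exon2KO library, and without the block it was called as well, at -1.41 (edgeR adjusted p = 0.0167). Without WT 2 and without the block the Pcgf2 value was -0.98 and not called (edgeR adjusted p = 0.263). Over 18 alternatives Pcgf2 was called in 7. Cbx6, a chromodomain subunit, fell by 0.35 with the block (edgeR adjusted p = 0.000964) and Kdm2b, which targets a PRC1 variant to CpG islands, fell by 0.29 (edgeR adjusted p = 0.00603). Kdm2b overlaps Rnf34 and A930024E05Rik on the opposite strand, which held 2690 and 1024 counts over all libraries beside its 11853, so its reads are uncertain where counting did not use strand. Of the 5 tested genes that remove the Polycomb marks or assist in it, 1 was called with the block (20%, beside 9.72% of all tested genes). It was Asxl1, a partner of the H2A deubiquitinase Bap1. It had 342, 309 and 345 CPM in WT and 267, 272 and 286 CPM in Exon2KO, without overlap, and fell by 0.27 (SE 0.06, edgeR adjusted p = 0.0107). Asxl2 gave -0.15 (edgeR adjusted p = 0.131) and Bap1 0.11 (edgeR adjusted p = 0.337).

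**Figure D4:**
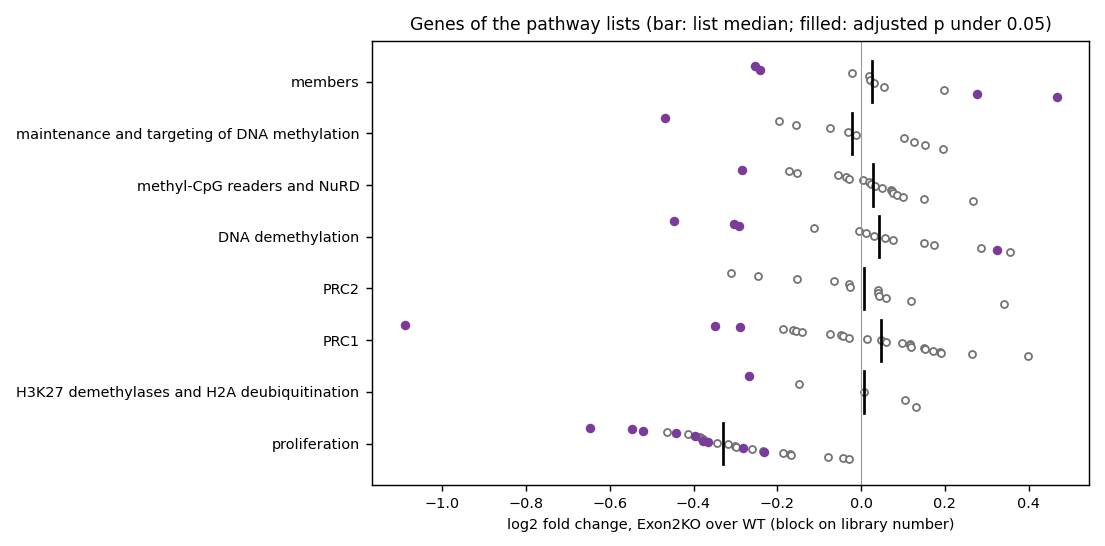
Log2 fold change of Exon2KO over WT with the block, for each tested gene of the members, the 6 partner lists and the proliferation list; filled points have an adjusted p under 0.05 and vertical bars are list medians. The proliferation median lies at -0.33, and the medians of the partner lists lie between -0.02 and 0.05.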

How the data were processed

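The 6 libraries are labelled biological replicates, 3 per genotype, and whether reads were counted by strand is not given in the sources used here. HISAT2 2.0.5, StringTie 1.3.3b, featureCounts 1.5.0-p3 and DESeq2 1.16.1, with the mm10 build, are named in the submitters' processing notes. The deposited table holds raw counts per gene, used for every test. Levels of different genes were compared as CPM per kilobase of the deposited gene length. The authors' log2 fold change and p-value per gene are given for Tet3 alone, and the authors' group means, a normalized signal, were not used. A further 6 columns of per-library FPKM were not used, since only 1 measure per library was taken from columns that match no single sample. Of 55840 gene IDs, 55218 had the same position in GENCODE M21.

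Genes were filtered with filterByExpr, scaled by TMM and tested in R 4.3.3 with the quasi-likelihood test of edgeR 4.0.16 (robust, no block), adjusted over all 14919 genes. SE is the absolute log2 fold change over the square root of F. The scripts were tested on simulated counts, where the share of false calls was above the nominal level in the fit without the block and in the fit with it, so adjusted p-values near the threshold are less strict than they read. The simulated libraries were drawn independently, with the spread of the fit without the block and no effect of the number. They therefore do not measure the false calls of the blocked fit in these data. Each library number occurs once per genotype. Deviations from the genotype mean correlated between libraries of equal number at 0.271 (number 2), 0.369 (number 6) and 0.494 (number 20) over 14919 genes, each above 0.1, so the number was used as a block. The pairing comes from the column names alone, which match no sample title. Its values stand beside each printed fold change whose call they change. Same-genotype libraries differed beyond counting noise (chi-square per degree of freedom of 8.66 to 26.4), so none was counted as a repeat of another. A count of 3, the limit a count of 0 allows, equals 0.141 to 0.169 CPM by library, for counting error only.

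Named genes are the members, the 3 genes of smallest p in each partner list (none had more than 3 called without the block), the 3 genes most like each member, Mki67, Mcm5 and Foxp3, with exceptions stated. Members and lists were chosen with earlier results of these data known. The alternatives were other count filters, scalings and tools (DESeq2 1.42.0, limma-voom in limma 3.58.1), the block, and leaving out libraries. The blocked fits without 1 number and the test of the number were chosen after seeing the data.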

Additional observations from a re-analysis of the deposited data

How the results depend on the processing

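Without a count filter 617 genes were called, and DESeq2 called 639. With the replicate block on the library number, 1450 genes and 4 members were called by edgeR, and 1382 genes and 2 members by limma-voom. In the blocked edgeR fit, 277 genes were called with number 2 left out, 1441 genes and 3 members with number 6 left out, and 900 genes with number 20 left out. Of the 348 genes called without the block, 347 were also called with it. Leaving out single libraries without the block gave 86 to 314 called genes and 0 members. Among the members these leave-one-out values ranged from -0.082 to 0.17 for Dnmt1, -0.10 to 0.12 for Dnmt3a, -0.12 to 0.14 for Tet2, -0.021 to 0.062 for Mbd2, -0.080 to 0.023 for Ezh1, 0.066 to 0.29 for Dnmt3b and -0.60 to 0.16 for Uhrf1. Signs changed without WT 2 (Dnmt1, Mbd2), WT 6 (Dnmt1, Dnmt3a, Tet2, Ezh1), WT 20 (Uhrf1), Exon2KO 2 (Tet2), Exon2KO 6 (Mbd2) or Exon2KO 20 (Dnmt1, Dnmt3a, Tet2). Other named genes that changed sign were Gadd45b (-0.99 to 0.35), Mki67 (-0.78 to 0.060) and Mcm5 (-0.47 to 0.094). In the blocked fit Mbd2 was -0.023 with number 2 left out, and Dnmt1, Dnmt3a and Tet2 were -0.023, -0.025 and -0.023 with number 6 left out. The cause was not tested. The planned ratio on FPKM was not run. Tet3, Tet1, Dnmt3b and Ezh2 kept their direction in all 18 alternatives. The Ezh2 to Ezh1 log2 ratio difference ran from -0.38 to -0.051 over 8 alternatives; with the block it was -0.23 (exact sign-flip permutation test, p = 0.25, which is the smallest that 3 pairs can give).

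The biological coefficient of variation over all genes was 17.3% without and 8.56% with the block; counting error was not set against it member by member. Tet1 and Dnmt3b had the fewest counts, from 162 to 361 and from 244 to 337 per library. A blocked fit without 1 number rests on 2 pairs.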
